A study of Mus musculus with 22 samples.

Results

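The Wnt/β-catenin pathway of brain endothelium was followed through 10 genes that were picked by symbol from the 37991 genes of the deposited table: Ctnnb1, Lef1, Tcf7, Axin2, Apcdd1, Fzd4, Fzd6, Lrp6, Tnfrsf19 and Gpr124. All 10 were found under these symbols, and all 10 passed the filter on low values in every comparison. RNA came from CD31+ cells sorted from mouse brain, CD31 being a surface protein of the endothelium that lines blood vessels. The activation group (4 libraries, CamKIIa-tTA; TRE-hM3Dq) carried a designer receptor (DREADD) through which the drug CNO excites glutamatergic neurons. The silencing group (4 libraries, CamKIIa-tTA; TRE-hM4Di) carried one through which CNO inhibits them. Each was set against 4 libraries of littermates given CNO as well, and cortex and hippocampus were taken 3 hours after the injection. By the series text these littermates lacked the receptor, whereas their genotype label is that of the treated mice, so which transgene they lacked is not known here. The CamKIIa promoter drives the receptor in excitatory neurons of the forebrain, and the sequenced cells are endothelial. Whisker-plus mice (3 libraries, C57BL/6) explored an enriched cage in the dark, and whisker-minus mice (3 libraries, C57BL/6) had no whiskers and an empty cage, so whiskers and cage cannot be told apart. Each whisker library pooled 5 pairs of barrel cortices.

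In canonical Wnt signalling, a ligand on a Frizzled receptor with an Lrp5 or Lrp6 co-receptor stops a destruction complex from degrading β-catenin, the product of Ctnnb1. β-Catenin then enters the nucleus and activates genes together with Lef1 or Tcf proteins. In brain endothelium the ligands Wnt7a and Wnt7b act through Frizzled receptors with the co-activators Gpr124, an adhesion receptor now called Adgra2, and Reck, while the ligand Norrin (Ndp) acts in the retina and cerebellum through Fzd4. The pathway is known for building and maintaining the blood-brain barrier. Axin2, Apcdd1 and Tnfrsf19 are transcribed in response to it. Axin2 is a scaffold of the destruction complex, Apcdd1 a membrane-bound inhibitor of Wnt signalling, and Tnfrsf19 (Troy) a member of the tumour necrosis factor receptor family.

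The libraries of activation and its controls held 18387666 to 25163689 reads, those of silencing and its controls 25897142 to 32957916, and the whisker libraries 44187482 to 57673270. Values are CPM, counts scaled to the same total in each library. The summed CPM of 12 endothelial markers lay between 18620 and 26320 in all 22 libraries, against 47.29 to 132.7 for 11 neuron markers. The library labelled silencing control 2 stood apart from the other silencing controls. Whisker-minus 2 and 3 stood apart from the other whisker libraries in astrocyte markers. Both points touch the results below. Fzd4 was at 355.4 to 501.3 CPM in silencing libraries, against 419.1 CPM in silencing control 2 and 139.1 to 286.5 CPM in the other controls. Slc2a1 was at 9570 to 11830 CPM in silencing libraries, against 11780 CPM in silencing control 2 and 5437 to 5995 CPM in the other controls. Silencing control 2 did not look like the silencing libraries in every gene. Ccnd1 was at 30.04 to 46.18 CPM in silencing libraries, 87.9 in silencing control 2 and 51.64 to 73.81 in the other controls. Tle3 was at 42.79 to 61.01 CPM in silencing libraries, 71.91 in silencing control 2 and 77.39 to 84.38 in the other controls. Whether the label of silencing control 2 is right is not known here. Silencing values are therefore given with and without that library where it changes them. Without silencing control 2 the count of genes that passed in the silencing comparison was 1504, against 23 with it. Summed astrocyte markers (11 of 11 detected) were 398.1 to 439.1 CPM in whisker-plus libraries. They were 367.1 CPM in whisker-minus 1, and 1346 and 1206 CPM in whisker-minus 2 and 3. In the DREADD libraries and their controls they ran from 295.3 to 700.4 CPM, so whisker-minus 2 and 3 stood above all other libraries. In bulk samples, fewer cells of a type and less RNA per cell cannot be told apart.

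Axin2 and Tnfrsf19 are shown with the 250 bases before their start sites, since they are the pathway targets named above that had a window. After subtracting each experiment's mean, their levels had an r of 0.76 over the 22 libraries. For all genes compared with Axin2 the middle r was 0.23 and the 95th percentile 0.66. The target Apcdd1 had an r of 0.83 with Axin2 and 0.90 with Tnfrsf19, but no window. The windows are from RefSeq on GRCm38.p6, and 6 of the 10 genes had at least 1 window in the table. Axin2 has 1 start site there (chr11:108920099-108920348, plus strand) and Tnfrsf19 has 2 (chr14:61046856-61047105 and chr14:61037988-61038237, both minus strand). Capitals mark a match to the Lef1/Tcf core motif, searched on both strands in 4 spellings, the first being CTTTGAA, another being CTTTGAT, another being CTTTGTA and the last being CTTTGTT.
Axin2: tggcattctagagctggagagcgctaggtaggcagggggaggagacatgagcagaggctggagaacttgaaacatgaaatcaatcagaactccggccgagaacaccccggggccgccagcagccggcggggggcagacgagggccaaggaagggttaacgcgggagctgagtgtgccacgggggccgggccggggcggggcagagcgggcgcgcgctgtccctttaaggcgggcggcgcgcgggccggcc
Tnfrsf19, start 1: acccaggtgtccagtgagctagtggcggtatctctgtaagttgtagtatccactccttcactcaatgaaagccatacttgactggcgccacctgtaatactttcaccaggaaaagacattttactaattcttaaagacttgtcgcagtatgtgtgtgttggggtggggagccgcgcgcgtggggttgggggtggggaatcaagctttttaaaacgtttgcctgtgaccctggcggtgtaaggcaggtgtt
Tnfrsf19, start 2: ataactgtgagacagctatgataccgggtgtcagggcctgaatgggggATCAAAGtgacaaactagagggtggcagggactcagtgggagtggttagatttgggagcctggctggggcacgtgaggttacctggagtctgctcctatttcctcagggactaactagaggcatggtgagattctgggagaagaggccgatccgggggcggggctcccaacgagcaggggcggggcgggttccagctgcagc
Of 12 windows of the 10 genes, 2 held a match, ATCAAAG 202 bases before start 2 of Tnfrsf19 and TACAAAG 147 bases before one start of Lef1. A match was held by 14.84% of all 32851 windows of this length. These are descriptions of the letters, and no site is inferred from them.

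Per kilobase of exon (GENCODE M21 lengths, found for all 10), the genes spanned a 28.8-fold range in the 11 control libraries. Ctnnb1 was the most abundant, with a median of 369.6 CPM per kilobase. It was followed by Gpr124 at 98.6, Apcdd1 at 88.7, Fzd6 at 87.5, Tnfrsf19 at 76.0 and Tcf7 at 69.3 CPM per kilobase. Fzd4, Lef1 and Axin2 stood lower, with medians of 39.0, 30.9 and 30.2 CPM per kilobase, and Lrp6 was lowest at 12.8. The ranges of neighbours in this order overlapped, except between Ctnnb1 and Gpr124 and between Axin2 and Lrp6. The other co-receptor Lrp5 had a median of 36.5 CPM per kilobase and Reck one of 60.4. The paralogous nuclear partners Tcf7l1 and Tcf7l2 were at medians of 5.09 and 1.11 CPM per kilobase, below Lef1 and Tcf7. The ligands Wnt7a, Wnt7b and Ndp, which other cells make, had medians of 0.31, 0.41 and 0.35 CPM per kilobase. No source used here says how the authors' counting treated strand. Exons of a gene on the other strand cover 14.6% of Ctnnb1 (Ulk4) and 13.8% of Lef1 (Gm43352), and 1.26 to 3.80% of Axin2, Fzd6 and Gpr124.

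**Figure D1:**
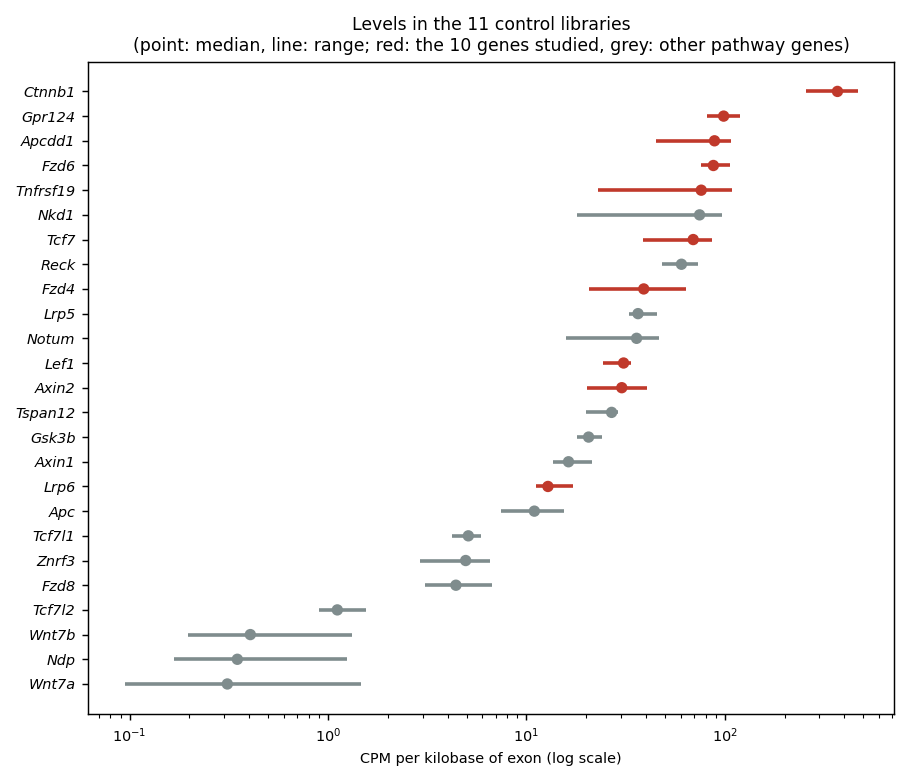
Level of each gene in the 11 control libraries, in CPM per kilobase of exon on a log axis; points are medians, lines the range, red the 10 genes and grey 15 other pathway genes chosen for their known roles. Ctnnb1 lies above all others at a median of 369.6, and the ligands Wnt7a, Wnt7b and Ndp lie lowest.

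Activation moved none of the 10 genes past the threshold, an adjusted p under 0.05 in limma on log2(CPM + 1) with Benjamini-Hochberg adjustment over all tested genes. Of all 12872 genes tested, 0.14% passed. At an unadjusted p under 0.05 there was 1 of the 10 (11.4% of all genes), edgeR and DESeq2 called 0 of the 10, and 0 of 10 separated the groups without overlap (7.16% of all genes). The targets Tnfrsf19 and Apcdd1 had the largest differences, both lower in all 4 same-numbered pairs of libraries. Tnfrsf19 was at 281.1, 189.8, 373.8 and 349.0 CPM in the activation libraries, against 513.2, 360.2, 455.9 and 352.0 CPM in their controls. The groups overlapped, since 2 activation libraries stood near the lower pair of controls. The difference on the log2(CPM + 1) scale was -0.52 ± 0.20 (SE), with an adjusted p of 0.356 (limma). Apcdd1 was at 897.2, 492.3, 1203 and 963.1 CPM in the activation libraries, against 1312, 946.0, 1228 and 1173 CPM in the controls, and activation 2 was the lowest of the 8. Its difference of -0.45 ± 0.23 had an adjusted p of 0.50.

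The other target, Axin2, was at 140.9, 110.7, 170.6 and 178.9 CPM in the activation libraries, against 223.4, 121.3, 163.6 and 191.9 CPM in the controls. Each group spanned most of the other, and the log2 difference was -0.21 ± 0.19, with a 95% interval of -0.64 to 0.22. The receptor genes Fzd4, Fzd6 and Lrp6 differed by -0.09, -0.19 and -0.17, and Gpr124 by 0.03. Ctnnb1 differed by -0.07 ± 0.13, Lef1 by 0.03 ± 0.10 and Tcf7 by 0.05 ± 0.14. Libraries left out one at a time turned the sign of Ctnnb1, Lef1, Tcf7, Fzd4 and Gpr124, so no direction is read for these. In all, 7 of 10 genes had a difference below 0 (51.6% of all genes), with a median of -0.13 over the 10 genes and -0.01 over all tested genes. With the replicate number as a block, 0 of 10 passed, against 1.82% of all genes, and the adjusted p was 0.114 for Tnfrsf19 and 0.144 for Apcdd1. All 11 astrocyte markers and all 6 tested smooth muscle markers were above 0 with activation, with medians of 0.21 and 0.38. Of 12 endothelial markers 8 were below 0, with a median of -0.055. With or without the block, 0 of these markers passed. The part of these cells in the activation values was not tested.

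**Figure D2:**
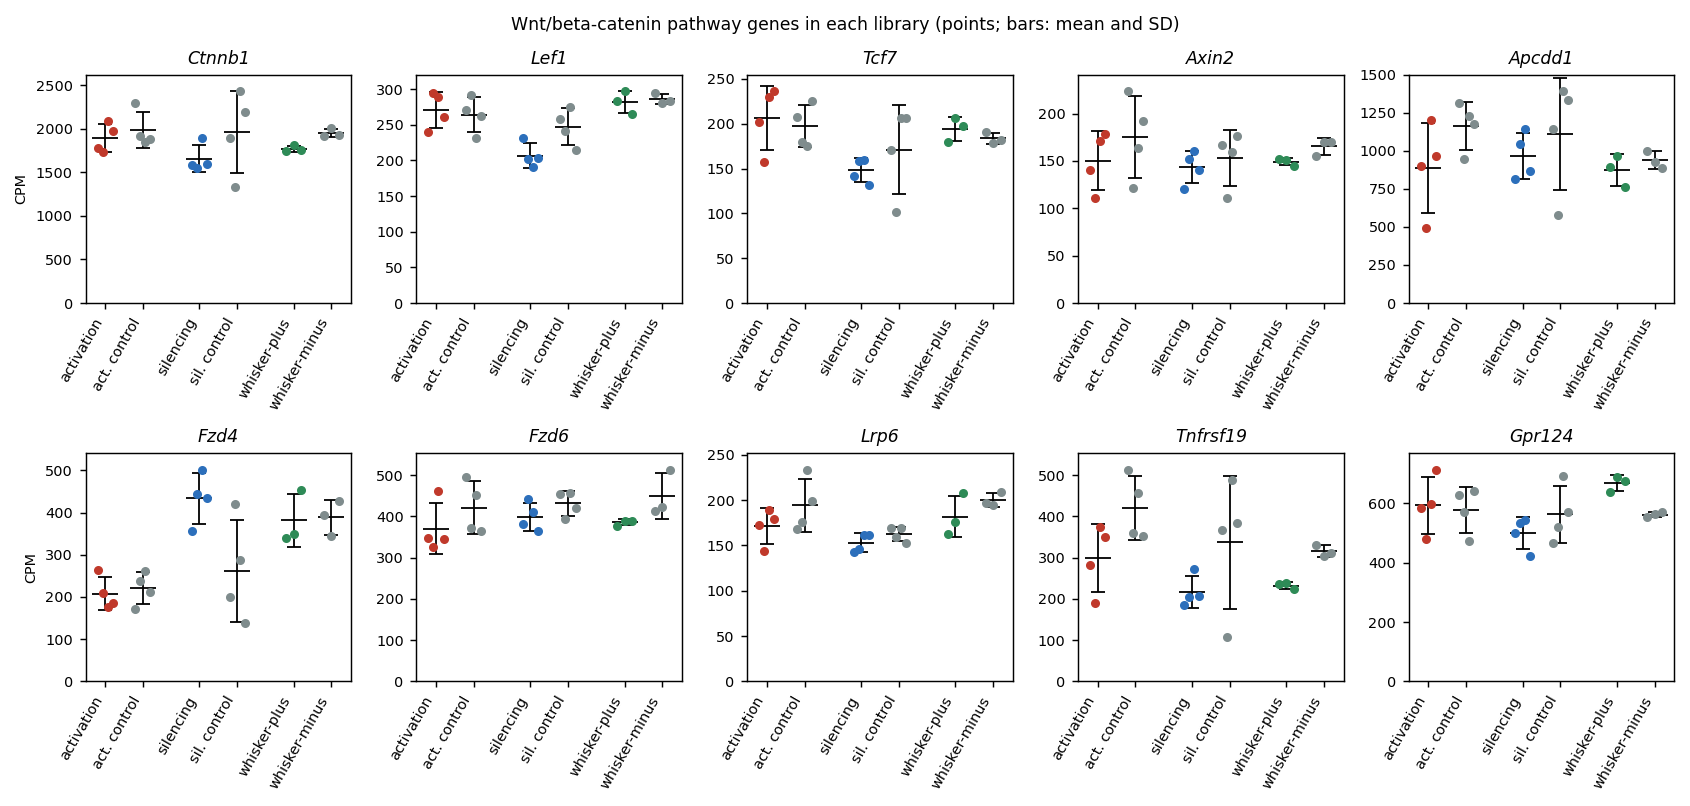
CPM of the 10 genes in each of the 22 libraries (points), with mean and SD of each group (bars); each treated or whisker-plus group stands left of its controls. Whisker-plus and whisker-minus libraries separate for Tnfrsf19 (223.2 to 238.3 against 304.2 to 331.3) and Gpr124, whereas 1 silencing control lies apart from the rest for Tnfrsf19 (108.5), Tcf7 (101.0) and Apcdd1 (580.9).

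Silencing gave no call among the 10 genes with every library in the fit, where 0.177% of 13017 genes passed. At an unadjusted p under 0.05 there were 2 of the 10, Fzd4 and Lef1 (16.1% of all genes), edgeR and DESeq2 called 0 of the 10, and 0 of 10 separated the groups without overlap (9.55% of all genes). With the replicate block 0 of 10 passed as well, against 1.04% of all genes. The receptor Fzd4 had the largest difference and was higher in all 4 same-numbered pairs. It was at 355.4, 443.5, 501.3 and 433.8 CPM in the silencing libraries, against 199.9, 419.1, 286.5 and 139.1 CPM in the silencing controls. Silencing control 2, at 419.1 CPM, was the control that reached into the silencing range. The log2 difference was 0.84 ± 0.29, with an adjusted p of 0.205 (limma) and 0.111 with the replicate block. The authors' deposited table gives Fzd4 a log2 fold change of 0.54 and an FDR of 0.103. Without silencing control 2 the difference of Fzd4 was 1.10 ± 0.21, with an adjusted p of 0.0126 (limma).

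Lef1, which carries β-catenin to DNA, was lower in all 4 pairs. It was at 231.2, 202.3, 190.7 and 202.8 CPM in the silencing libraries, against 257.8, 241.9, 275.6 and 214.3 CPM in the controls. The groups overlapped through silencing 1 and silencing control 4, and the difference of -0.26 ± 0.10 had an adjusted p of 0.25 (limma). Its partner in that role, Tcf7, was at 141.9, 158.2, 159.6 and 131.9 CPM in the silencing libraries, against 170.4, 101.0, 206.4 and 206.1 CPM in the controls. Silencing control 2 lay below all 4 silencing libraries and the other 3 controls above them. The difference of Tcf7 was -0.16 ± 0.21 with all libraries and -0.39 ± 0.10, adjusted p 0.0362 (limma), without silencing control 2.

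The target Tnfrsf19 showed the same split. It was at 184.5, 205.3, 272.6 and 206.6 CPM in the silencing libraries, against 367.0, 108.5, 489.5 and 383.1 CPM in the controls. The 3 controls other than silencing control 2 lay above every silencing library. The difference was -0.45 ± 0.40 (adjusted p 0.603, limma) with all libraries and -0.93 ± 0.14 (adjusted p 0.00475) without silencing control 2. Axin2 differed by -0.08 ± 0.15 and Apcdd1 by -0.14 ± 0.26. Silencing control 2 was the lowest of the 4 controls for both, at 110.5 and 580.9 CPM. Ctnnb1 differed by -0.21 ± 0.19, Fzd6 by -0.11 ± 0.09, Lrp6 by -0.09 ± 0.08 and Gpr124 by -0.16 ± 0.14. With single libraries left out, Axin2 ran from -0.2268 to 0.0016, Apcdd1 from -0.4215 to -0.0023 and Ctnnb1 from -0.3888 to -0.10. Their lowest adjusted p values in these fits were 0.165, 0.0787 and 0.0783 (limma). In all, 9 of 10 genes had a difference below 0 (66.3% of all genes), with a median of -0.15 over the 10 and -0.07 over all tested genes. Summed endothelial markers were 18620 to 20870 CPM in silencing libraries, against 20070 CPM in silencing control 2 and 22660, 26320 and 24860 CPM in the other controls. Of these 12 markers 10 were below 0, with a median of -0.10, and 1 passed. Summed pericyte markers were 1007 to 2405 CPM in silencing libraries, against 843.5 to 2711 CPM in controls, and 8 of 8 were above 0, with a median of 0.34 and 0 that passed. The part of these cells in the differences was not tested.

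Leaving out silencing control 2 raised the calls over all genes to 1504 of 13127 (11.5%), and 3 of the 10 genes passed, Fzd4, Tcf7 and Tnfrsf19. With the replicate block and pair 2 left out, 18.4% of all genes and 5 of the 10 passed, the others being Ctnnb1 (-0.36, adjusted p 0.0496) and Apcdd1 (-0.46, adjusted p 0.0164). With pair 1, 3 or 4 left out, 0 genes passed in the blocked fit. This library was singled out after its values were seen. Summed astrocyte markers were 364.7 to 517.3 CPM in silencing libraries, against 700.4 CPM in silencing control 2 and 423.0 to 441.7 CPM in the other controls. Their part in these results was not tested.

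**Figure D3:**
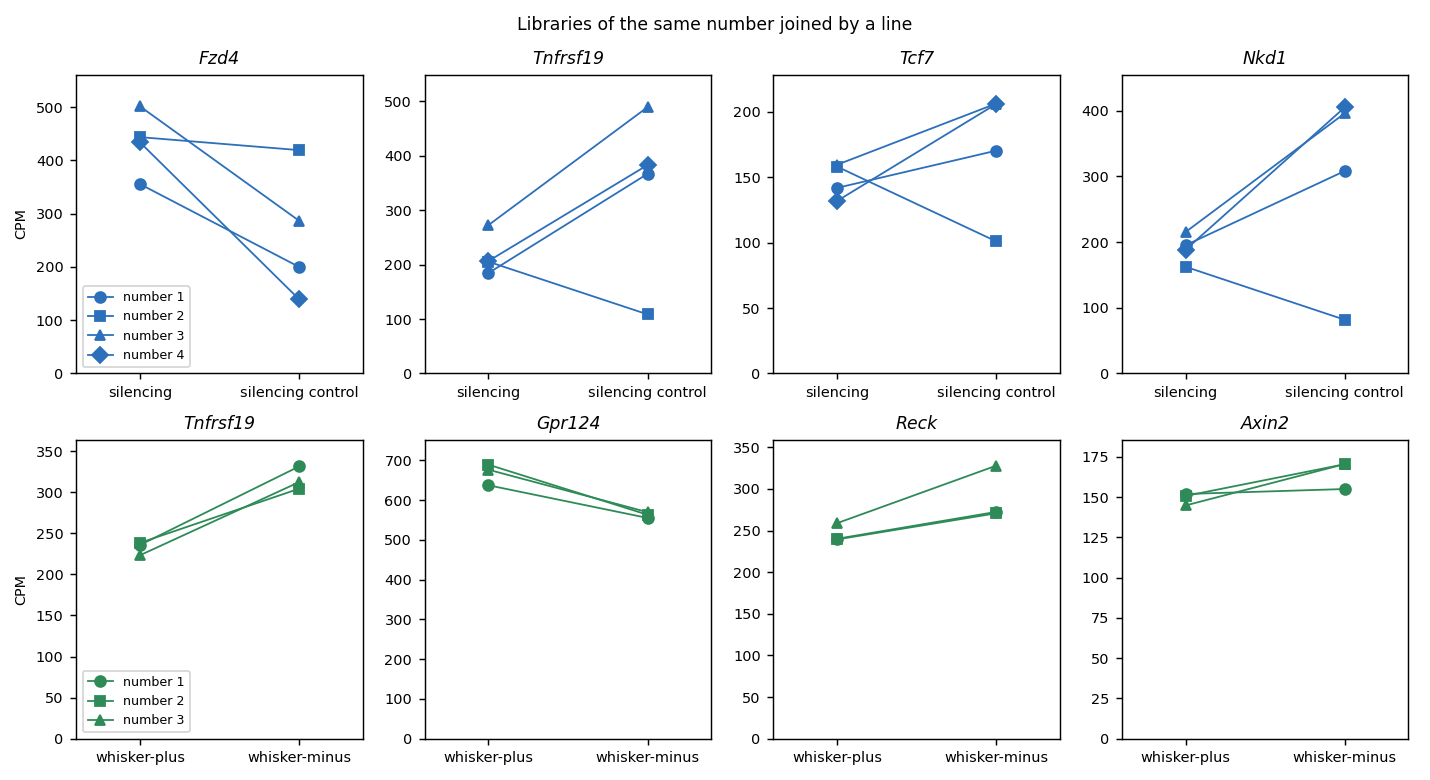
CPM of selected genes in libraries that share a replicate number, joined by a line; the top row sets silencing left of its controls, the bottom row whisker-plus left of whisker-minus. For Tnfrsf19, Tcf7 and Nkd1 silencing 2 lies above its control (205.3 against 108.5 CPM for Tnfrsf19), while the other 3 silencing libraries lie below theirs.

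In the deposited CPM, whisker exploration separated 5 of the 10 genes without overlap between groups, against 19.1% of all tested genes. Of these 5, 4 were lower (13.4% of all genes) and 1 higher (5.65%). Overlap was not examined after RLE or TMM scaling. The limma fit without a block called 0 of 12776 genes (0%), and 1656 (13%) had an unadjusted p under 0.05, 2 of the 10 among them. edgeR called 0 genes as well. With the replicate block, 2 of the 10 passed, against 8.59% of all genes: Tnfrsf19 was lower (5.6% of all genes were) and Gpr124 higher (2.99%). Tnfrsf19 was at 235.7, 238.3 and 223.2 CPM in the whisker-plus libraries, against 331.3, 304.2 and 312.2 CPM in the whisker-minus libraries. All whisker-plus values lay below all whisker-minus values by more than the spread within either group. The difference was -0.44 ± 0.07, with an adjusted p of 0.19 (limma) and 0.00339 with the replicate block.

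Gpr124, the Wnt7a and Wnt7b co-activator, was at 637.3, 689.2 and 676.4 CPM in the whisker-plus libraries, against 555.1, 563.1 and 569.6 CPM in the whisker-minus libraries. The groups did not overlap, and the difference of 0.25 ± 0.08 had an adjusted p of 0.278 (limma) and 0.0248 with the replicate block. DESeq2 on the recovered reads, without a block, called both genes too, Gpr124 at 0.32 (adjusted p 0.00725) and Tnfrsf19 at -0.37 (adjusted p 0.0113). In the authors' deposited table Gpr124 has a log2 fold change of 0.31 with an FDR of 0.0401, and Tnfrsf19 has -0.33 with an FDR of 0.0507. In the blocked fit without pair 3, neither gene passed, and 1 gene passed in all. Without pair 2, Tnfrsf19 passed and Gpr124 did not (5.36% of all genes passed), and without pair 1 both passed (18.3% of all genes).

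The other genes whose groups did not overlap were lower. The target Axin2 was at 151.9, 150.7 and 144.8 CPM in the whisker-plus libraries, against 155.0, 170.4 and 170.5 CPM in the whisker-minus libraries, so the gap to whisker-minus 1 was small. Its difference was -0.15 ± 0.08, with a 95% interval of -0.32 to 0.03. The receptor Fzd6 was at 377.2, 389.8 and 389.1 CPM in whisker-plus libraries, against 413.8, 421.7 and 512.8 CPM in whisker-minus libraries, a difference of -0.21 ± 0.10 with an adjusted p of 0.0705 with the block. Ctnnb1 was at 1743, 1809 and 1755 CPM in whisker-plus libraries, against 1919, 2010 and 1933 CPM in whisker-minus libraries, a difference of -0.14 ± 0.09. None of these 3 passed with every library, with or without the block. Other settings with every library brought the differences as near to 0 as -0.06 (Axin2), -0.13 (Fzd6) and -0.06 (Ctnnb1). The authors' deposited log2 fold changes are -0.06, -0.12 and -0.06, with FDR values of 0.898, 0.712 and 0.899. In the blocked fit Fzd6 passed without pair 1 (-0.26, adjusted p 0.0168, limma) and without pair 2 (-0.27, adjusted p 0.0412), and Axin2 passed without pair 1 (-0.21, adjusted p 0.0395). Lrp6 differed by -0.14 ± 0.10, Apcdd1 by -0.11 ± 0.11 and Tcf7 by 0.08 ± 0.08. Lef1 and Fzd4 differed by -0.02 and -0.03, and both signs turned with RLE scaling, to 0.06 and 0.05, and with TMM scaling. The median was -0.13 over the 10 genes and -0.07 over all tested genes, with 8 of 10 and 64% of all genes below 0.

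Whisker-minus 1 had the lowest astrocyte sum of its group (367.1 CPM) and the highest Tnfrsf19 (331.3 CPM). All 11 astrocyte markers had a whisker difference below 0, with a median of -1.15, and 6 passed with the block. All 7 smooth muscle markers were below 0 as well, with a median of -0.52. The 4 red blood cell markers and the 7 tested microglia and macrophage markers were all above 0, with medians of 0.43 and 0.48. With the block 2 red blood cell markers passed, and 0 of the smooth muscle, microglia and macrophage markers did. Their part in the whisker results was not tested. Without whisker-minus 1, Tnfrsf19 differed by -0.41 and Gpr124 by 0.24, and neither passed.

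**Figure D4:**
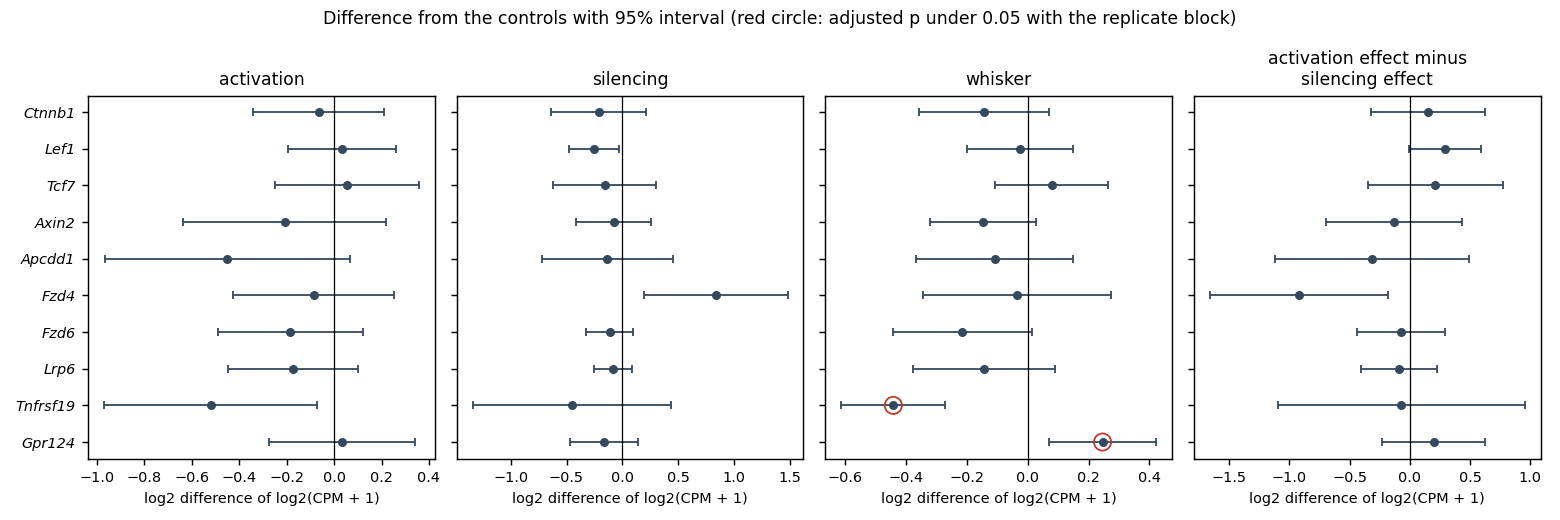
Log2 difference of each gene from its controls with its 95% interval (limma on log2(CPM + 1)), for activation, silencing, whisker-plus against whisker-minus, and the activation effect minus the silencing effect. Red circles mark an adjusted p under 0.05 with the replicate block, which only Tnfrsf19 and Gpr124 in the whisker comparison carry; the Fzd4 interval in the silencing comparison runs from 0.20 to 1.48.

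The activation and silencing effects were compared directly in the 16 DREADD libraries, where 2.31% of 13464 genes passed and 0 of the 10 did, in limma, edgeR or DESeq2. At an unadjusted p under 0.05 there was 1 of the 10 (16.7% of all genes). Fzd4 had the largest difference of effects, -0.92 ± 0.35 (activation minus silencing), with an adjusted p of 0.174 (limma) and 0.101 with the block. Without silencing control 2 it was -1.19, with an adjusted p of 0.021. Lef1 differed by 0.29 ± 0.14, with an adjusted p of 0.318. The difference for Tnfrsf19 was -0.07 ± 0.48, and it was 0.41 without silencing control 2. Its sign also turned without 3 other single libraries and in edgeR and DESeq2, so no direction is read. The remaining 7 genes lay between -0.31 and 0.21. With the block, 0 of 10 passed, against 6.35% of all genes.

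Other pathway genes were taken from lists of ligands, receptors, the destruction complex, nuclear partners, antagonists, target genes and barrier genes that change with endothelial β-catenin. In the activation comparison 0 of 89 tested passed without the block (0.14% of all genes) and 3 with it (1.82% of all genes). Reck, the partner of Gpr124, fell to 200.3, 185.0, 226.4 and 203.4 CPM in the activation libraries, against 288.8, 230.0, 320.9 and 266.7 CPM in the controls. The groups did not overlap, and the difference of -0.43 ± 0.11 had an adjusted p of 0.0309 with the block (0.181 without). Ccnd1, which encodes cyclin D1, was higher at 126.8, 118.8, 124.0 and 198.3 CPM in the activation libraries, against 70.26, 71.66, 49.29 and 91.16 CPM in the controls. Its difference was 1.00 ± 0.20, with an adjusted p of 0.0095 with the block. With 1 pair left out at a time, the blocked fit called 0 or 1 pathway genes. Without pair 2 it called 1 of 89, against 0.356% of all genes. Ctla2a, a cysteine protease inhibitor, was the third, at 786.6 ± 169.7 CPM in activation libraries and 479.9 ± 67.2 CPM in controls (SD, n = 4 each, adjusted p 0.0414 in limma with the block). The matrix proteoglycan gene Spock2 was at 4223 to 6941 CPM in activation libraries, against 7460 to 9080 CPM in controls, and did not pass (-0.59 ± 0.19, adjusted p 0.12 with the block). The feedback antagonists Nkd1 and Notum differed by 0.10 ± 0.21 and -0.31 ± 0.22.

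In the silencing comparison 0 of 89 passed without the block (0.177% of all genes) and 2 with it (1.04% of all genes). Tle3, a co-repressor of Lef1 and Tcf proteins, was lower at 50.34, 42.79, 47.71 and 61.01 CPM in the silencing libraries, against 84.38, 71.91, 77.39 and 83.25 CPM in the controls. The groups did not overlap, and the difference of -0.65 ± 0.11 had an adjusted p of 0.0242 with the block and 0.0574 without. Slc16a1, the monocarboxylate carrier MCT1, was lower at 271.6 ± 39.5 CPM in silencing libraries and 690.2 ± 195.4 CPM in controls (SD, n = 4 each, adjusted p 0.0268 in limma with the block). Nkd1, a feedback antagonist, was at 162.5 to 215.4 CPM in the silencing libraries, against 81.77 CPM in silencing control 2 and 308.4 to 405.4 CPM in the other controls. Without that library 16 of 90 pathway genes passed, 12 lower and 4 higher, against 11.5% of all genes. Of these, Nkd1 differed by -0.95, Notum by -0.61 and the tight-junction gene Cldn5 by -0.96. The ligand gene Wnt5a differed by 1.18, Lrp5 by 0.40 and Slc2a1, the glucose carrier GLUT1, by 0.92. Wnt5a was at 101.0 to 107.1 CPM in the silencing libraries, against 218.8 CPM in silencing control 2 and 40.58 to 49.72 CPM in the other controls.

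In the whisker comparison 0 of 85 passed without the block and 14 with it, against 8.59% of all genes. With pair 1 left out, 23 of 90 passed, against 18.3% of all genes, and with pair 2 left out 6 of 85, against 5.36%. With pair 3 left out, 0 passed. Of the co-receptors, Reck was lower, at 240.2, 239.4 and 258.9 CPM in whisker-plus libraries against 272.5, 270.8 and 328.0 CPM in whisker-minus libraries (-0.23 ± 0.10, adjusted p 0.0345 with the block). Gpr124 was higher and its partner Reck lower in the same libraries. Among the target genes, Ctla2a (0.48), Ccnd1 (0.40) and the transcription factor gene Foxf2 (0.22) were higher, and Ppard (-0.29), a nuclear receptor gene, and Znrf3 (-0.36), a ubiquitin ligase gene that removes Frizzled receptors, were lower. Of the destruction complex list, Csnk1e (0.33) was higher and Btrc (-0.36) and Apc2 (-0.84) lower. Of the barrier list, Ly6a (0.28) was higher and Spock2 (-0.44), Itih5 (-0.37) and Slc16a1 (-0.46) lower. Ror1 (-0.83) was the other receptor gene that passed, at 2.58 to 3.15 CPM in whisker-plus libraries and 4.09 to 7.97 CPM in whisker-minus libraries. Wnt7a was at 0.84, 0.47 and 0.37 CPM in whisker-plus libraries, against 0.88, 4.64 and 4.67 CPM in whisker-minus libraries. Wnt7b was at 0.96, 0.76 and 1.24 CPM in whisker-plus libraries, against 1.01, 6.45 and 4.58 CPM in whisker-minus libraries. Of the 6 whisker libraries, both ligands were high in whisker-minus 2 and 3 alone, the libraries with the high astrocyte markers. Without whisker-minus 1, 5 of 90 passed (2.67% of all genes), all lower: Wnt7a (-1.87), Wnt7b (-1.70), Fzd2 (-2.01), Lgr6 (-1.65) and Apc2 (-1.23). In that fit the filter asked for 1 CPM in fewer libraries, and the only controls left were those with the high astrocyte markers. Wnt7a, under 1 CPM in every whisker-plus library, entered it only through whisker-minus 2 and 3. Its direction there was set by the filter and is not read as a result. The part of the astrocyte markers in these values was not tested.

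**Figure D5:**
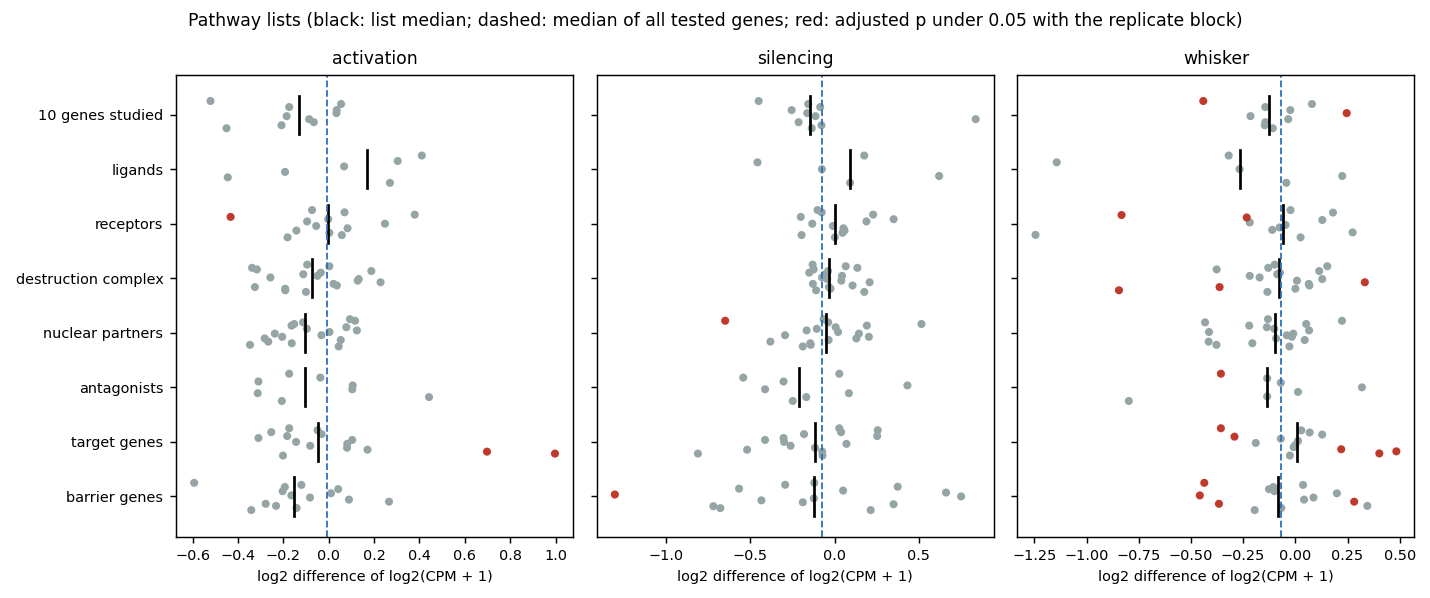
Log2 difference of every tested pathway gene by list in the activation, silencing and whisker comparisons; black bars are list medians, the dashed line the median of all tested genes, and red points passed with the replicate block. The list medians for the 10 genes were -0.13, -0.15 and -0.13, against -0.01, -0.07 and -0.07 for all tested genes.

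By list, medians in the activation comparison ran from -0.15 (barrier genes) to 0.17 (ligands). In the silencing comparison they ran from -0.21 (antagonists) to 0.09 (ligands), and in the whisker comparison from -0.27 (ligands) to 0.01 (target genes). Of the genes with the highest control CPM in each list, not scaled by length, Wnt5b, Csnk1a1, Csnk1d, Aes, Ep300 and Jun did not pass in any of the 3 comparisons, with or without the block. In the difference of effects, Ccnd1 was the 1 of 93 pathway genes that passed without the block, at 1.81 ± 0.29 (adjusted p 0.00548, limma), against 2.31% of all genes. With the block 6 of 93 passed, against 6.35% of all genes, the others being Tle3 (0.77), Ctla2a (0.77), Tle1 (-0.67), Abcb1a (-0.56), the efflux pump gene, and Itih5 (-0.63).

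Across the 22 libraries, after subtracting each experiment's mean, several of the 10 genes varied together. Pearson's r was 0.91 between Ctnnb1 and Tnfrsf19 and 0.90 between Apcdd1 and Tnfrsf19 (Spearman's rho 0.90 and 0.85). For Axin2 and Apcdd1 r was 0.83 (rho 0.79). Without silencing control 2 these were 0.88, 0.86 and 0.81. Fzd4 ran the other way, with r of -0.60 with Ctnnb1 and -0.43 with Axin2, and Lef1 was near 0 with Axin2 (-0.18). Each point is a library, whose values share its depth and its makeup of cells, so these r values are a description. Among 10276 genes with a mean of at least 5 CPM, Apcdd1 stood 9th and Tnfrsf19 94th in likeness to Axin2. Tcf7 stood 319th, Ctnnb1 383rd and Fzd6 864th. Lrp6 stood 3536th, Gpr124 3598th, Lef1 8523rd and Fzd4 9615th. The middle of all genes was at r = 0.23, and the 95th percentile at 0.66. The 5 genes most like Axin2 were Sirt7 (0.90), Tril (0.88), Thsd1 (0.87), Aspscr1 (0.85) and Tulp3 (0.85).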

How the data were processed

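Per the file headers, the authors deposited CPM values (reads scaled to a common library total) for 37991 genes in 22 libraries, with their own log2 fold change, p-value and FDR for each comparison. Per the submitters' processing notes, the tools included HTSeq 0.6.1, TopHat2 2.0.11, DESeq2, Bowtie2 2.2.1 and SAMtools 0.1.19, on build mm9, with no roles given. No source used here gives the read-counting settings. Of the deposited CPM values, 100% were whole multiples of 1 read within 0.01 read, so whole reads were recovered for the count tests.

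Groups were taken from the sample titles. The 10 genes and the pathway lists were chosen with earlier results of these data known. Genes named are the 10, each pathway gene that passed with or without the block, the 2 with the highest control CPM in each list and the 5 most like Axin2; Nkd1, Notum, Cldn5, Wnt7a, Wnt7b, Ndp, Tcf7l1, Tcf7l2, Fzd2 and Lgr6 are partly named for their role or after their values were seen. limma 3.58.1 in R 4.3.3, with a mean-variance trend, was run on log2(CPM + 1), with only the groups compared. Genes tested had reached 1 CPM in 4 libraries (3 for whisker). With libraries left out, the filter asked for as many libraries as the smaller group still held. limma was also run on simulated counts. These held no deviating library, so that run says nothing about calls that depend on 1 library. Differences on the log2(CPM + 1) scale understate the change of low genes. The threshold was 0.05 after Benjamini-Hochberg adjustment over every tested gene. Other settings tried were scaling by RLE or TMM, a pseudocount of 0.1, no filter, all 22 libraries, leaving out each library, the replicate block, and edgeR 4.0.16 and DESeq2 1.42.0 on recovered reads. On those reads edgeR called 2, 24, 0 and 295 genes and DESeq2 371, 462, 406 and 760 for activation, silencing, whisker and the difference of effects.

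No label says what a replicate number stands for. Subtracting group means, same-numbered libraries correlated over genes at 0.372, 0.455, 0.431 and 0.277 (activation), 0.597, 0.155, 0.443 and 0.142 (silencing) and 0.462, 0.481 and 0.617 (whisker). Pairs were therefore assumed on the strength of the data, not of any label, and blocked values stand beside results they change. Gene lengths came from GENCODE M21 and promoters from RefSeq, both on another build than mm9, so no gene coordinates of the files are given. The number of reads limits precision little at these levels, and intervals are over libraries.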

Additional observations from a re-analysis of the deposited data

Results flagged for a closer look

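Single libraries lay apart from the other 3 of their group for 2 of the 10 genes, in 3 of the 40 groups of 4 that were examined with Dixon's ratio. Chance gives about 1 such group in 20. Ctnnb1 was at 2291 CPM in activation control 1, against 1851 to 1915 CPM in the other activation controls. Ctnnb1 was also at 1890 CPM in silencing 3, against 1554 to 1591 CPM in the other silencing libraries. Fzd6 was at 461.4 CPM in activation 3, against 326.1 to 347.1 CPM in the other activation libraries. Neither gene passed in these comparisons with every library in the fit. Silencing control 2, singled out above, was not flagged by Dixon's ratio for any of the 10 genes.

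The activation and silencing effects on Ccnd1 differed from each other by 1.81 on the log2(CPM + 1) scale, with an adjusted p of 0.00548 (limma) and 0.00338 with the replicate block. Ccnd1 was higher in activation libraries than in their controls in 4 of 4 pairs and lower in silencing libraries than in their controls in 4 of 4 pairs.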

How the results depend on the processing

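Replicates are biological samples by the series text, and 3 or 4 a group limit what can be called. Leaving out silencing control 2, or whisker pair 3 in the blocked fit, decided the calls among the 10 genes, and the cause was not tested.

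The count of the 10 genes called was 0 in each comparison, and no setting with all libraries changed it for activation, silencing or the difference of effects. For the whisker comparison it was 2 with the replicate block, with the block and TMM scaling, with DESeq2, and with the block in edgeR. Leaving out single libraries gave 0 to 0 (activation), 0 to 3 (silencing), 0 to 0 (whisker) and 0 to 1 (difference of effects). Without silencing control 2, 11.5% of all genes passed for silencing and 6.73% for the difference of effects. The blocked fit without 1 pair, chosen after seeing the data, gave 0 to 0 for activation, 5 without pair 2 for silencing, 4, 2 and 0 without pairs 1, 2 and 3 for whisker, and 2 without pair 2 for the difference of effects. The share of all genes that passed without pair 2 was 18.4% for silencing and 9.2% for the difference of effects. For whisker it was 18.3% without pair 1 and 5.36% without pair 2.

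The count of other pathway genes was 0 for activation, and 3 with all 22 libraries, 3 with the block, 2 with the block and TMM, 6 with DESeq2, 1 with the block in edgeR, and 1, 1 and 1 in the blocked fit without pairs 2, 3 and 4. For silencing it was 0, and 6 with all 22 libraries, 2 with the block, 2 with the block and TMM, 10 with DESeq2, 2 with the block in edgeR and 24 in the blocked fit without pair 2. It ran from 0 to 16 with single libraries left out. The 16 came without silencing control 2, where 11.5% of all genes passed, and the 24 where 18.4% did. For whisker it was 0, and 14 with the block, 4 with the block and TMM, 4 with DESeq2, 7 with the block in edgeR and 23 and 6 in the blocked fit without pairs 1 and 2, with a range of 0 to 5 over libraries left out. The 23 and 6 came where 18.3% and 5.36% of all genes passed. For the difference of effects it was 1, and 2 with RLE, 2 with TMM, 7 with all 22 libraries, 6 with the block, 4 with the block and TMM, 3 with edgeR, 8 with DESeq2, 5 with the block in edgeR and 3, 10, 0 and 2 in the blocked fit without pairs 1, 2, 3 and 4, with a range of 1 to 13 over libraries left out. Without pairs 1 and 2 the share of all genes was 1.72% and 9.2%, and without silencing control 2, which gave 13, it was 6.73%.

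Over all genes, activation gave 18 calls, and 0 with RLE, TMM or no filter, 6 with a pseudocount of 0.1, 254 with all 22 libraries, 234 with the block, 106 with the block and TMM, 2 with edgeR and 371 with DESeq2. Silencing gave 23, and 37 with RLE, 36 with TMM, 14 with a pseudocount of 0.1, 7 with no filter, 222 with all 22 libraries, 136 with the block, 171 with the block and TMM and 462 with DESeq2. Whisker gave 0, and 6 with all 22 libraries, 1097 with the block, 723 with the block and TMM and 406 with DESeq2. The difference of effects gave 311, and 111 with no filter, 537 with all 22 libraries, 855 with the block, 753 with the block and TMM and 760 with DESeq2. In edgeR with the block the counts were 92, 116, 750 and 816.

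No sign turned in a value past the threshold. Signs turned as follows. In the whisker comparison Lef1 was 0.0606 (RLE), 0.0514 (TMM), 0.0514 (block and TMM), 0.0416 (edgeR), 0.0476 (DESeq2), 0.0421 (block in edgeR) and 0.0118 (block without pair 3), and Fzd4 was 0.0506, 0.0413, 0.0413, 0.0384, 0.0460 and 0.0322 in the first 6 of these settings and 0.0534 in the block without pair 1. In activation, the block without pair 1 gave Ctnnb1 0.0323, the block without pair 3 gave Lef1 -0.0578, Tcf7 -0.0558, Fzd4 0.0785 and Gpr124 -0.0663, and the block without pair 4 gave Gpr124 -0.0059. In silencing, the block without pair 1 gave Axin2 0.0487, and without pair 4 Tcf7 0.0037, Axin2 0.0027 and Apcdd1 0.0231. In the difference of effects Tnfrsf19 was 0.0857 (edgeR) and 0.0693 (DESeq2), and the block without pair 2 gave Axin2 0.0239, Apcdd1 0.1765, Fzd6 0.0211 and Tnfrsf19 0.5179. With single libraries left out, the ranges that crossed 0 were, for activation, -0.1131 to 0.0045 (Ctnnb1), -0.0260 to 0.0922 (Lef1), -0.0159 to 0.1784 (Tcf7), -0.2041 to 0.0018 (Fzd4) and -0.0591 to 0.1318 (Gpr124). For silencing it was -0.2268 to 0.0016 (Axin2), and for whisker -0.0616 to 0.0184 (Lef1) and -0.1667 to 0.0422 (Fzd4). For the difference of effects they were -0.2931 to 0.0186 (Axin2), -0.1821 to 0.0117 (Fzd6), -0.1539 to 0.0037 (Lrp6) and -0.3142 to 0.4067 (Tnfrsf19).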
